A study of Mus musculus with 8 samples.

Results

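Wnt ligands, their Frizzled receptors and Lrp co-receptors, the secreted antagonists of the pathway and 2 of its target genes were measured in prostate tumours that grew in aged or in young mice. The 44 genes were found among the 24028 genes of the tables by their symbols: every Wnt ligand gene (19), every Frizzled gene (10), the co-receptors Lrp5 and Lrp6, the antagonists Sfrp1, Sfrp2, Sfrp4, Sfrp5, Frzb, Wif1 and Notum, the Dickkopf genes Dkk1 to Dkk4, and Axin2 and Lef1. The rule used symbols only. The filter on low counts left 33 of the 44 for testing, and the other 11 are described by their levels.

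Wnt proteins are secreted, lipid-modified glycoproteins that bind Frizzled receptors on nearby cells. Together with Lrp5 or Lrp6 they keep beta-catenin from being degraded, so that it enters the nucleus and acts with Lef1 and the Tcf factors on genes such as Axin2; other Wnt proteins, among them Wnt5a and Wnt11, signal mainly without beta-catenin. Secreted Frizzled-related proteins and Wif1 bind Wnt proteins outside the cell. Notum removes the lipid that receptor binding needs, and some Dickkopf proteins, though not all, block the Lrp co-receptors. In the prostate, Wnt signals pass between epithelium and stroma during bud formation and regrowth of the gland, and several Wnt antagonists are made by stromal cells.

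The tumours came from TRAMP-C2 cells, an established prostate adenocarcinoma line derived from a TRAMP mouse, a transgenic strain in which a prostate promoter drives SV40 T antigen. 4 tumours (aged 46, 47, 50 and 51, named by mouse number) grew in aged male C57BL/6 hosts of 20 to 24 months, and 4 (young 36, 37, 40 and 43) in young male C57BL/6 hosts of 4 months. All hosts were immune-competent and had received 1 M cells of the same line in the dorsolateral prostate, and tumours were taken 30 to 45 days later. Each tumour is from a mouse of its own, and how these mice were chosen among the 19 aged and 20 young hosts injected is not given in the sources used here. The comparison asks whether the age of the host goes with the level of the pathway's genes in tumours of the same line. Wherever 4 values of a group are listed, they follow the order of the mouse numbers just given.

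The libraries held 27.1 to 35.7 M fragments, so that 3 fragments, the limit which a count of 0 allows, stand for 0.084 to 0.111 CPM (fragments of a gene per 1 M fragments of its library). The tumours grew in host prostate, so epithelial markers cannot tell cells of the line from host epithelium. They do not check the label of an epithelial adenocarcinoma. The 7 epithelial markers read here were all detected in all 8 tumours. Their summed level was 141 to 670 CPM in aged tumours, against 63.7 to 454 CPM in young tumours, with Epcam, an epithelial adhesion protein, lowest in young 43 (0.7 CPM). The 10 fibroblast markers summed to 4871 to 11253 CPM in aged tumours, against 8592 to 15490 CPM in young tumours. Aged 50 and young 36 stood apart by seminal vesicle transcripts (8 markers, 22952 CPM in aged 50 and 38197 CPM in young 36, at most 18.9 CPM in the other 6 tumours).

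Per unit of transcript length (FPKM), 15 of the 44 genes reached at least 1 FPKM in all 8 tumours, 14 in some of them and 15 in none. Among the ligands, Wnt10a, a canonical ligand of skin, hair and tooth development, had the highest median level with 16.1 FPKM. It was followed by Wnt9a, a ligand of joint and skeletal development, with 8.3 FPKM and Wnt5a, the main ligand of beta-catenin-independent signalling, with 4.58 FPKM. Wnt7b had a median of 3.43 FPKM and Wnt6 of 2.4 FPKM, and the other 14 ligands had medians between 0 and 1.13 FPKM. Wnt10a was the most abundant ligand in each of the 8 tumours, with 23.1% to 37% of the summed FPKM of all ligands in aged tumours and 43.9% to 53.9% in young tumours.

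The receptors were led by Fzd2, with a median of 41.8 FPKM, Fzd1, with 23.4 FPKM, and Fzd6, with 9.69 FPKM. These 3 held the first 3 places among the Frizzled genes in all 8 tumours. Fzd4, Fzd7, Fzd8 and Fzd5 had medians of 0.993 to 2.9 FPKM, and Fzd3, Fzd10 and Fzd9 at most 0.107 FPKM. Of the co-receptors, Lrp6 had a median of 11.4 FPKM and Lrp5 of 9.41 FPKM. The highest antagonist was Sfrp2, with a median of 41.5 FPKM, ahead of Sfrp1 with 10.1 FPKM. Dkk3, a divergent member of its family, and Dkk2 had medians of 3.44 and 3.4 FPKM. Axin2 stood at a median of 1.59 FPKM and Lef1 at 0.113 FPKM.

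**Figure D1:**
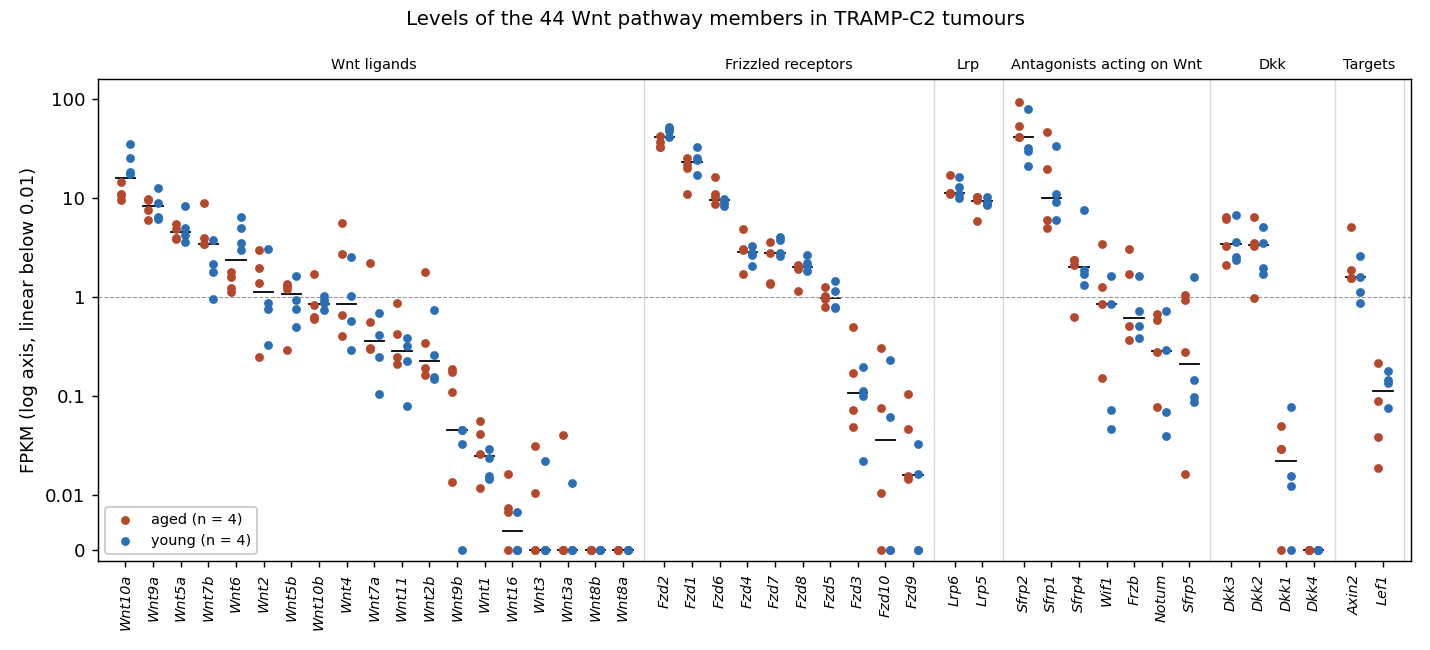
Level of each of the 44 genes in FPKM (log axis, linear below 0.01) by role and in order of the median, with aged tumours (red, n = 4) left of young tumours (blue, n = 4) and a black bar at the median of all 8. Wnt10a, Fzd2, Lrp6 and Sfrp2 lead their roles, and 15 genes lie below the dashed line at 1 FPKM in every tumour.

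The 11 genes left out of the test had at most 0.926 CPM in any tumour, the value of Fzd10 in aged 50. No fragment of Wnt8a, Wnt8b or Dkk4 was counted in any tumour, which allows at most 0.111 CPM. Wnt16 had 5 fragments over all 8 tumours, Wnt3a 5, Wnt3 6, Dkk1 15, Wnt1 16, Fzd9 16, Fzd10 66 and Wnt9b 87. The main test made no comparison between the host ages for these genes. Some of them were included in alternative fits, and with all 8 tumours none had an unadjusted p under 0.05. Without aged 46, Wnt9b passed the filter and had an unadjusted p under 0.05 in edgeR. Wnt3a, the standard canonical ligand of cell culture work, was detected in 2 tumours, with 0.112 CPM in aged 50 and 0.037 CPM in young 37, and was at 0 in the other 6. Aged 50 held 80% of its fragments, which are too few to rank tumours.

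With edgeR's quasi-likelihood test and Benjamini-Hochberg adjustment over all genes tested, none of the 33 genes passed an adjusted p of 0.05, and neither did any other gene (0 of 14575, 0%). At an unadjusted p under 0.05 stood 4 of the 33 (12.1%), against 728 of all genes tested (4.99%). Wnt6, Wnt10a and Fzd2 were lower in aged tumours (3 of 33, 9.09%, against 2.66% of all genes), and Wnt7b was higher (1 of 33, 3.03%, against 2.34%). The log2 CPM values of aged and young tumours did not overlap for Wnt6, Wnt10a and Fzd2 (3 of 33, 9.09%, against 3.66% of all genes), all of them lower in aged tumours (2.31% of all genes) and none higher (1.35% of all genes). With 3 tumours left in a group, more genes in all did not overlap: without aged 46 that count was 5 of 34 (14.7%, against 8.81% of all genes), with Fzd6 and Wnt9b added, and without young 40 it was 5 of 34 (14.7%, against 5.22%), with Sfrp2 and Wnt7b added. The log2 fold changes, aged minus young, were above 0 for 21 genes and below 0 for 12, with a median of 0.24, beside a median of 0.03 over all genes tested.

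DESeq2 gave another count of calls, 51 of 15330 genes with an adjusted p (0.333%), and 2 of them were Wnt6 and Wnt10a. limma voom with sample weights called 9 of 14575 genes (0.0617%) and none of the 33, of which 4 had an unadjusted p under 0.05 there (12.1%, the same share as over all genes).

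**Figure D2:**
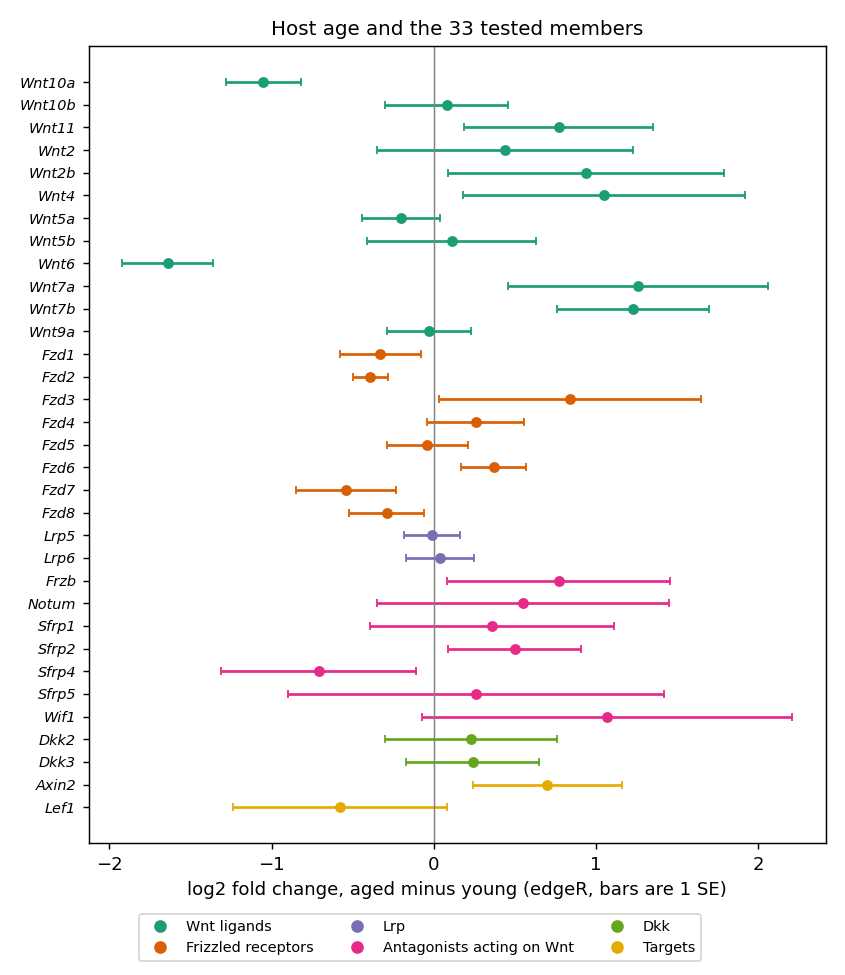
log2 fold change (aged minus young, edgeR) of the 33 tested genes, coloured by role, with bars of 1 standard error. Wnt6 and Wnt10a lie farthest below 0, Wnt7a (1.26) and Wnt7b (1.23) farthest above it.

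Wnt6 and Wnt10a, neighbours in the genome, had the smallest p-values of the family. Wnt6, a ligand expressed mainly by epithelia in the embryo, had 2.54, 3.74, 3.28 and 2.32 CPM in aged tumours, against 6.21, 10.4, 13.5 and 7.25 CPM in young tumours. All 4 aged tumours lay below all 4 young tumours, and young 40 was the highest. Aged tumours averaged 2.97 ± 0.658 CPM and young tumours 9.33 ± 3.29 CPM (n = 4 each, SD); the log2 fold change was -1.64 ± 0.28 (SE; edgeR adjusted p = 0.74). By p it ranked 4 of the 14575 genes tested. With DESeq2 its adjusted p was 6.9e-05, and over the other alternative settings it ran from 0.15 to 1.

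Wnt10a had 21.6, 28.8, 18.9 and 21.2 CPM in aged tumours, against 34.3, 50.4, 69.8 and 35.8 CPM in young tumours. Again no aged tumour reached the lowest young tumour, and young 40 was the highest. Aged tumours averaged 22.6 ± 4.29 CPM and young tumours 47.6 ± 16.5 CPM (n = 4 each, SD); the log2 fold change was -1.05 ± 0.23 (SE; edgeR adjusted p = 0.77). Its rank by p was 24. DESeq2 gave an adjusted p of 0.015, and the other alternative settings 0.25 to 1. With each tumour left out in turn the fold change stayed between -1.17 and -0.83, and that of Wnt6 between -1.78 and -1.43.

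Both genes lie on the plus strand of chromosome 1 (GRCm38): Wnt6 (Entrez 22420) at chr1:74754342-74785322 and Wnt10a (Entrez 22409) at chr1:74792019-74804176. The gap between them is 6.7 kb and no annotated gene lies in it. No stretch of 50 bases, the read length, of the Wnt6 or the Wnt10a transcript occurred in a transcript of another gene. Of the 1043 coding stretches of Wnt6, 0 were within 2 differences of Wnt10a. Likewise 0 of the 1202 of Wnt10a were within 2 differences of Wnt6. The closest pair of coding stretches of that length is shown. Both come from exon 2 of GENCODE vM21 transcripts on GRCm38, with capitals at the 13 bases that differ.

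Wnt6, chr1:74782239-74782288, plus strand: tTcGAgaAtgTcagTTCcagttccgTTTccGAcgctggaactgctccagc

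Wnt10a, chr1:74793527-74793576, plus strand: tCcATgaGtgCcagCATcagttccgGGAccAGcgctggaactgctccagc

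In FPKM, the pair together made up 29%, 39.1%, 26.9% and 40.8% of all ligand transcripts in aged tumours, against 51.5%, 64.5%, 55% and 60.1% in young tumours. The groups did not overlap in this share, which restates the lower values of both genes. The other 17 ligands summed to 30.1, 25.8, 30.5 and 17.3 FPKM in aged tumours, against 19.3, 16.9, 34.4 and 14.4 FPKM in young tumours, and there the groups overlapped. The ratio of Wnt10a to Wnt6 FPKM was 6.07 to 9.67 in aged tumours and 5.12 to 5.83 in young tumours. In proportion, the groups were thus farther apart for Wnt6 than for Wnt10a; that difference between the 2 genes was not tested.

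These samples are bulk tissue, in which fewer cells of a type and less RNA per cell cannot be told apart. Fibroblast markers went in the same direction as the pair: 8 of 10 had a log2 fold change below 0, and their mean log2 CPM was 6.51 to 7.74 in aged tumours and 7.51 to 8.13 in young tumours. Pdgfrb, a receptor of fibroblasts and pericytes, was the marker among them with an unadjusted p under 0.05 (log2 fold change -0.88). No fibroblast marker was at 0 in any tumour. Macrophage markers went the same way for 5 of 6 genes, of which Cd68 (log2 fold change -0.51) had an unadjusted p under 0.05. Their mean log2 CPM was 7.45 to 8.31 in aged tumours and 7.98 to 8.36 in young tumours, they summed to 1200 to 2598 CPM in aged tumours, against 1829 to 2548 CPM in young tumours, and none was at 0. Epithelial markers went the other way for 6 of 7 genes, with none under an unadjusted p of 0.05, and their mean log2 CPM was 3.79 to 6.26 in aged tumours and 1.73 to 5.65 in young tumours. The part of these cell types in the values of Wnt6 and Wnt10a was not tested. Without aged 50 and young 36, the fold changes were -1.81 for Wnt6 and -1.07 for Wnt10a.

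**Figure D3:**
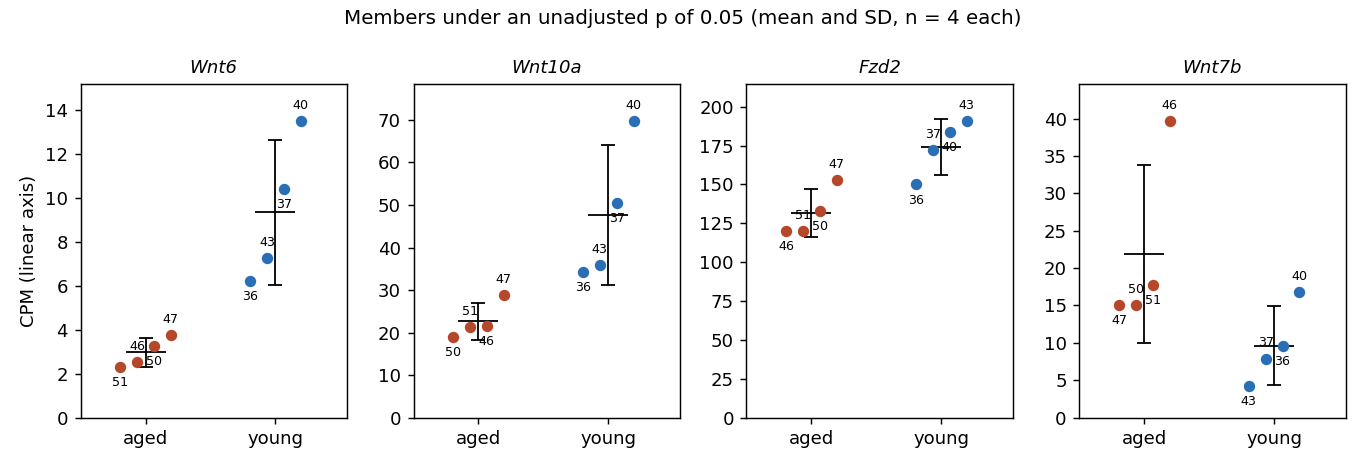
CPM (linear axes from 0) of Wnt6, Wnt10a, Fzd2 and Wnt7b in each tumour, labelled by mouse number, with aged tumours left of young tumours and black lines for mean and SD (n = 4 each). Wnt6 and Wnt10a do not overlap between the groups, Fzd2 overlaps only through aged 47 and young 36 on this scale, and for Wnt7b young 40 lies within the aged range.

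Other Wnt genes lie beside each other as well. Wnt1 and Wnt10b, 11.7 kb apart on chromosome 15, differed in level: Wnt1 had 0.0619, 0.0984, 0.0281 and 0.132 CPM in aged tumours, against 0.0693, 0.037, 0.0347 and 0.056 CPM in young tumours, near the limit of detection. Wnt10b, the closest relative of Wnt10a, had 1.36, 1.87, 3.9 and 1.42 CPM in aged tumours, against 1.66, 2.11, 2.29 and 1.99 CPM in young tumours. The groups overlapped, with aged 50 the highest (log2 fold change 0.08 ± 0.38, SE; edgeR adjusted p = 0.98). Wnt3a and Wnt9a are 16.1 kb apart on chromosome 11. Wnt9a had 32.9, 31.5, 25.6 and 20.1 CPM in aged tumours, against 29.5, 21.4, 42.6 and 20.3 CPM in young tumours, which overlapped throughout (log2 fold change -0.03 ± 0.26, SE; edgeR adjusted p = 0.99). The spans of Wnt3 and Wnt9b on chromosome 11 overlap. Wnt3 had 0, 0.0984, 0 and 0.0331 CPM in aged tumours, against 0, 0, 0.0693 and 0 CPM in young tumours. Wnt9b, a ligand of kidney development, had 0.0619, 0.853, 0.786 and 0.496 CPM in aged tumours, against 0.208, 0.148, 0.208 and 0 CPM in young tumours. Its fragments are few and aged 46 lay below 3 of the young tumours.

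Wnt7b, a canonical ligand of lung, kidney and vessel development, was higher in aged tumours. It had 39.7, 15.1, 15.1 and 17.7 CPM there, against 9.64, 7.91, 16.8 and 4.23 CPM in young tumours. Aged 46 was the highest by far, and young 40 exceeded aged 47 and aged 50, so the groups overlapped. Aged tumours averaged 21.9 ± 11.9 CPM and young tumours 9.64 ± 5.27 CPM (n = 4 each, SD); the log2 fold change was 1.23 ± 0.47 (SE; edgeR adjusted p = 0.92). Its unadjusted p was no longer under 0.05 without aged 46, where the fold change was 0.73, nor without young 36, 37 or 43, nor in limma voom, where it was 0.60. Wnt7b (chr15:85535437-85581821, minus strand) shares exon sequence with AU022754, a gene on the opposite strand, and the strand setting of the counting is not given in the sources used here; 0 of the 3316 stretches of 50 bases in the Wnt7b transcript examined occurred in another gene.

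Its closest relative Wnt7a, known from limb and female reproductive tract development, had 7, 1.77, 0.982 and 0.96 CPM in aged tumours, against 0.797, 1.33, 2.18 and 0.336 CPM in young tumours. Aged 46 held 47.3% of the fragments of all 8 tumours, and the other 3 aged tumours lay within the range of the young. The log2 fold change was 1.26 ± 0.80 (SE; edgeR adjusted p = 0.92), and 0.09 without aged 46. Aged 46 was thus the highest tumour for both genes. The coding stretches in which the 2 transcripts are most alike are shown, with capitals at the 3 of 50 bases that differ; both are from exon 4 on the minus strand.

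Wnt7b, chr15:85537417-85537466, minus strand: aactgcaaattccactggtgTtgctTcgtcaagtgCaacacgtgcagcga

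Wnt7a, chr6:91365877-91365926, minus strand: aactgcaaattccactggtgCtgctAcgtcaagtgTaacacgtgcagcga

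The remaining ligands overlapped between the host ages. Wnt5a had 17.3, 21.5, 23.8 and 16.8 CPM in aged tumours, against 18.5, 15.7, 36.4 and 21.7 CPM in young tumours (log2 fold change -0.20 ± 0.24, SE; edgeR adjusted p = 0.92). The value of young 40 lay above all others, and without that tumour the fold change was 0.08. Wnt5a shares exon sequence with Gm2670, a gene on the opposite strand. Of the 6961 stretches of 50 bases in the Wnt5a transcript examined, 4 occurred in another gene (Cxcl3, Mcf2l or Vip). Wnt2b, a canonical ligand of lung and eye development, had 0.588, 1.25, 6.51 and 0.695 CPM in aged tumours, against 0.555, 0.924, 2.67 and 0.532 CPM in young tumours. Aged 50 held 51.9% of its fragments. The log2 fold change of Wnt2b was 0.94 ± 0.85 (SE; edgeR adjusted p = 0.92) and -0.43 without aged 50. Wnt4, a ligand of kidney and reproductive tract development, ranged from 1.56 to 21.6 CPM in aged tumours and from 1.12 to 9.84 CPM in young tumours (log2 fold change 1.05 ± 0.87, SE), with aged 50 again the highest. Wnt2 ranged from 0.529 to 6.41 CPM in aged tumours and from 0.7 to 6.45 CPM in young tumours, Wnt5b from 0.774 to 3.61 CPM and from 1.34 to 4.32 CPM in the same order, and Wnt11 from 0.681 to 2.78 CPM and from 0.252 to 1.25 CPM. None of these 4 had an unadjusted p under 0.05. For Wnt11, 9.26% of the 50-base stretches of the transcript are shared with the pseudogene Gm8398 on the opposite strand.

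Among the receptors, Fzd2, a receptor of both canonical and beta-catenin-independent Wnt signals, had the smallest p. It had 120, 153, 133 and 120 CPM in aged tumours, against 150, 172, 184 and 191 CPM in young tumours. As deposited, aged 47 lay just above young 36, while with the TMM scaling of the test the groups did not overlap. Aged tumours averaged 132 ± 15.8 CPM and young tumours 174 ± 18 CPM (n = 4 each, SD); the log2 fold change was -0.39 ± 0.11 (SE; edgeR adjusted p = 0.92). The unadjusted p stayed under 0.05 with each tumour left out in turn, and the fold change between -0.45 and -0.35. This shift is small beside those of Wnt6 and Wnt10a. It went in the direction of the fibroblast and macrophage markers given above, whose part in it was not tested.

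Fzd2 (Entrez 57265, chr11:102604431-102608058, plus strand) is a gene of a single exon that resembles Fzd1 and Fzd7. No stretch of 50 bases of its transcript occurred exactly in another gene, but 195 of its 1661 coding stretches (11.7%) were within 2 differences of Fzd1, and 39 (2.35%) within 2 differences of Fzd7. An aligner that tolerates mismatches can place such reads on either gene, and how they were counted is not given in the sources used here. The closest stretches of each pair differ at 1 base, in capitals, and show how near the limit the 3 receptors come.

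Fzd2, chr11:102604833-102604882, plus strand: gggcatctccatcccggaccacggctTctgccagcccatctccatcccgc

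Fzd1, chr5:4757229-4757278, minus strand: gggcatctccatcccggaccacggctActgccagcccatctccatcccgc

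Fzd2, chr11:102606064-102606113, plus strand: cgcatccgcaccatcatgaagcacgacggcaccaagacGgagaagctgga

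Fzd7, chr1:59484298-59484347, plus strand: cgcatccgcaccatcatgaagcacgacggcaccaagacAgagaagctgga

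Fzd1 had 48.7, 113, 97.3 and 88.6 CPM in aged tumours, against 75.1, 108, 144 and 112 CPM in young tumours. The groups overlapped, with aged 46 the lowest and young 40 the highest (log2 fold change -0.33 ± 0.25, SE; edgeR adjusted p = 0.92). Fzd7, a receptor of stem and progenitor cells in several epithelia, had 6.53, 13.6, 17.5 and 6.72 CPM in aged tumours, against 13.6, 12.5, 19.8 and 18.1 CPM in young tumours. Aged 46 and aged 51 lay below all young tumours and the other 2 aged tumours among them (log2 fold change -0.54 ± 0.31, SE; edgeR adjusted p = 0.92); without aged 50 the unadjusted p was under 0.05 and the fold change -0.82. These 3 related receptors had a fold change below 0, and so did Fzd8 (-0.29) and Fzd5 (-0.04). That makes 5 of the 8 tested Frizzled genes. In limma voom the fold change of Fzd1 was -0.01.

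Fzd6, known for hair patterning and planar polarity in the mouse, had 35.9, 42.8, 45.7 and 68.9 CPM in aged tumours, against 34.6, 39.5, 40.7 and 36.8 CPM in young tumours. Aged 51 stood alone, and 3 of the 4 aged tumours exceeded every young tumour (log2 fold change 0.37 ± 0.20, SE; edgeR adjusted p = 0.92). Without aged 51 the fold change was 0.12, and without aged 46 it was 0.47 with no overlap between the groups. Fzd6 shares exon sequence with Gm26704, a gene on the opposite strand. Of the 4032 stretches of 50 bases in the Fzd6 transcript examined, 0 occurred in another gene. Fzd4, the receptor of norrin in retinal vessels, ranged from 6.38 to 18.2 CPM in aged tumours and from 7.59 to 12.2 CPM in young tumours. Fzd8 ranged from 3.9 to 7.05 CPM in aged tumours and from 6.14 to 8.9 CPM in young tumours, Fzd5 from 5.57 to 8.7 CPM and from 5.37 to 10 CPM in the same order, and Fzd3 from 0.629 to 6.4 CPM and from 0.28 to 2.5 CPM. For each of these 4 the groups overlapped and the unadjusted p was above 0.05. Of the 50-base stretches of the Fzd5 transcript, 16.6% are shared with Gm38058, a gene on the opposite strand.

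The co-receptors were among the steadiest genes of the family. Lrp5 had 35.3, 57.4, 61.7 and 62.4 CPM in aged tumours, against 55.5, 52.4, 61.5 and 50.8 CPM in young tumours (log2 fold change -0.01 ± 0.17, SE; edgeR adjusted p = 0.99). Aged 46 was low, and the other 7 tumours lay within 50.8 to 62.4 CPM. Lrp6 had 111, 112, 108 and 170 CPM in aged tumours, against 97.7, 109, 126 and 162 CPM in young tumours (log2 fold change 0.04 ± 0.21, SE; edgeR adjusted p = 0.98). The highest Lrp6 values came from aged 51 and young 43, so each group held a high tumour.

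The antagonists, with the Dickkopf genes counted among them, overlapped between the host ages without exception among the 9 tested. Sfrp2, which binds Wnt proteins and is made by stromal cells, had 83.5, 189, 107 and 82.6 CPM in aged tumours, against 42.4, 65.2, 162 and 59.8 CPM in young tumours. 3 young tumours lay below all aged tumours, while young 40 exceeded all but aged 47 (log2 fold change 0.50 ± 0.41, SE; edgeR adjusted p = 0.92). Without young 40 the fold change was 1.03 and the unadjusted p under 0.05; in limma voom it was 1.15 with an unadjusted p under 0.05. Of the 50-base stretches of the Sfrp2 transcript, 12.9% are shared with Gm26771, a gene on the opposite strand.

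Sfrp1, an antagonist that the prostate stroma expresses during development, had 26.5, 86.3, 206 and 21.9 CPM in aged tumours, against 48.2, 40.3, 148 and 26.3 CPM in young tumours. Aged 50 and young 40 were far above the others of their groups, and the log2 fold change was 0.36 ± 0.75 (SE; edgeR adjusted p = 0.95), or -0.54 without aged 50. Dkk3 had 7.12, 21.1, 21.9 and 11.1 CPM in aged tumours, against 12.2, 7.98, 22.7 and 8.73 CPM in young tumours, again with young 40 and aged 50 the highest of their groups (log2 fold change 0.24 ± 0.41, SE; edgeR adjusted p = 0.94). Dkk2 ranged from 3.64 to 23.8 CPM in aged tumours and from 6.32 to 18.8 CPM in young tumours. Its highest value was that of aged 46, the tumour that was also highest for Wnt7a and Wnt7b.

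Sfrp4 ranged from 2.54 to 9.56 CPM in aged tumours and from 5.23 to 30.4 CPM in young tumours, and Frzb, the Frizzled-related protein of cartilage, from 1.09 to 8.89 CPM and from 1.15 to 4.75 CPM in the same order. Wif1 ranged from 0.364 to 8.19 CPM in aged tumours and from 0.112 to 3.88 CPM in young tumours, a 73.2-fold span over the 8 tumours. Sfrp5 had the widest span of the tested genes, from 0.031 to 1.99 CPM in aged tumours and from 0.168 to 3.02 CPM in young tumours (97.4-fold), and its lowest value is under the limit of detection. Notum, itself a target of beta-catenin signalling, had 1.42, 0.59, 1.23 and 0.165 CPM in aged tumours, against 0.624, 0.148, 1.52 and 0.084 CPM in young tumours. High and low tumours of Notum were found in both groups (log2 fold change 0.55 ± 0.90, SE; edgeR adjusted p = 0.94). Without young 40 the fold change was 1.56, and without aged 46 it was 0.14. Genes on the opposite strand share 31.7% of the 50-base stretches of the Notum transcript.

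Axin2, a scaffold of the destruction complex that beta-catenin signalling induces as a negative feedback, had 6.75, 8.07, 22.2 and 6.78 CPM in aged tumours, against 6.83, 3.77, 11.3 and 4.9 CPM in young tumours. Aged 50 stood far above the other 3 aged tumours, which lay within the range of the young. The log2 fold change of 0.70 ± 0.46 (SE; edgeR adjusted p = 0.92) was 0.14 without aged 50. Lef1, a nuclear partner of beta-catenin, had 0.341, 0.787, 1.94 and 0.165 CPM in aged tumours, against 1.21, 1.29, 1.59 and 0.672 CPM in young tumours. Aged 50 was the highest and aged 51 and 46 the lowest, and the log2 fold change was -0.58 ± 0.66 (SE; edgeR adjusted p = 0.92). Without aged 50 it was -1.45, with an unadjusted p under 0.05. The 2 targets thus had fold changes of opposite sign while sharing their highest tumour. Of the 3433 stretches of 50 bases in the Lef1 transcript examined, 33.8% occur in Gm43352, an annotated gene on the opposite strand. The deposited length of Lef1 is 8835 bases, so this share is of a shorter transcript than the one behind its FPKM. For Axin2, 2.59% of such stretches occur in Gm11670.

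The 33 tested genes varied widely from tumour to tumour. Their median SD of log2 CPM over the 8 tumours was 0.78, beside 0.30 over all genes tested. It was 0.35 over the 5491 genes whose level lay between the quartiles of the 33 (log2 CPM 1.03 to 4.77). Those genes had a median level of 3.45, against 2.95 for the 33, so the 2 sets were not matched in level. By role the median SD was 0.898 for ligands, 0.377 for Frizzled receptors, 0.274 for the co-receptors and 1.17 for Sfrp1, Sfrp2, Sfrp4, Sfrp5, Frzb, Wif1 and Notum. On the log2 CPM scale, aged 50 held the highest value for 10 of the genes and young 40 for 9. Aged 46 held the lowest for 10 and young 43 for 10. Over all genes tested, aged 50 was the highest for 19.8% and young 40 for 6.03%, and aged 46 was the lowest for 19.3% and young 43 for 16.6%.

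Aged 50 led in Wnt2b, Wnt4, Wnt10b, Wnt11, Fzd3, Sfrp1, Frzb, Wif1, Axin2 and Lef1, and young 40 in Wnt5a, Wnt6, Wnt9a, Wnt10a, Fzd1, Fzd7, Sfrp4, Sfrp5 and Dkk3. The same 2 tumours had the highest mean log2 CPM of the 7 smooth muscle markers, 7.16 in aged 50 and 6.71 in young 40, while the other 3 aged tumours had 2.73 to 5.85 and the other 3 young tumours 4.74 to 5.24. None of these markers was at 0. In sum they reached 117 to 1631 CPM in aged tumours, against 447 to 1127 CPM in young tumours, with Myh11, a smooth muscle myosin, at 241 CPM in aged 50 and 172 CPM in young 40. By mean log2 CPM the same tumours were the top 2 for fibroblast markers as well (8.13 in young 40 and 7.74 in aged 50, at most 7.61 in the others). The same held for markers of Schwann cells and neurons (1.82 in young 40 and 1.58 in aged 50, at most 1.31 in the others). By summed CPM it did not hold for either list. Fibroblast markers summed to 15490 CPM in young 40, 12677 CPM in young 37 and 11253 CPM in aged 50. Markers of Schwann cells and neurons summed to 68 CPM in aged 46, 61.4 CPM in young 40, 53 CPM in aged 47 and 51.8 CPM in aged 50. Basal epithelial markers were also high in both, with means of 4.54 in aged 50 and 4.04 in young 40, and in aged 47 with 4.81. T cell markers had means of 3.43 in aged 50 and 2.83 in both young 40 and aged 47. The 2 tumours differed in epithelial markers (6.26 in aged 50, 4.10 in young 40). They also differed in prostate secretory markers (7.81 in aged 50, 1.51 in young 40). The part of these cell types in the values of the pathway's genes was not tested.

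**Figure D4:**
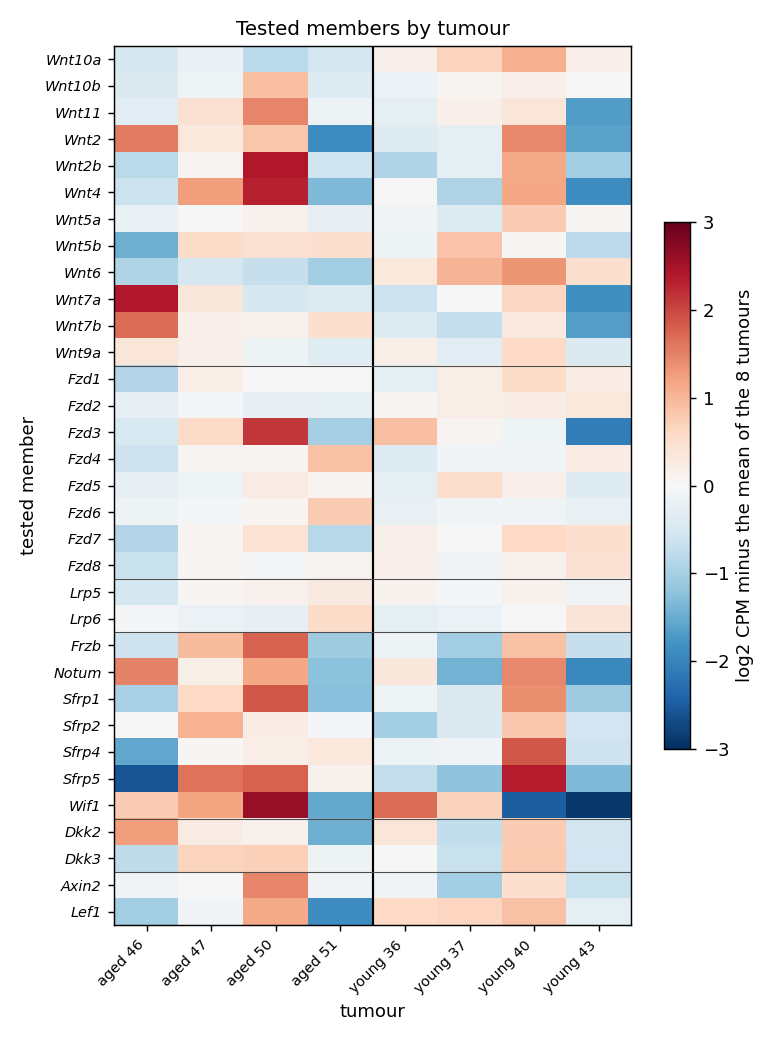
log2 CPM of the 33 tested genes in each tumour, as the difference from the gene's mean over the 8 tumours (red above, blue below), with aged tumours left of the vertical line and horizontal lines between roles. Aged 50 holds the highest value of 10 genes and young 40 of 9, the rows of Wnt6 and Wnt10a change colour at the line, and the Frizzled rows other than Fzd3 are paler than those of the antagonists.

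A further 71 genes of the pathway outside the family were read from the same fit, of which 62 were tested. At an unadjusted p under 0.05 stood 4 of them (6.45%, against 4.99% of all genes tested), and none passed the adjusted threshold. The log2 CPM values of aged and young tumours did not overlap for 2 of the 62, Daam1 and Tpbg. That share of 3.23% was no larger than the 3.66% of all genes tested. Ror1, a receptor tyrosine kinase for Wnt5a, was higher in aged tumours, with 1.95, 1.93, 3.14 and 1.99 CPM, against 0.693, 0.628, 2.01 and 0.532 CPM in young tumours (log2 fold change 1.24 ± 0.47, SE; edgeR adjusted p = 0.92). Daam1, a formin of the planar polarity branch, was higher too and did not overlap, with 51.1, 35.2, 34.3 and 36.9 CPM in aged tumours, against 30.9, 29, 33.8 and 24.5 CPM in young tumours (log2 fold change 0.44 ± 0.18, SE; edgeR adjusted p = 0.92). Tpbg, a membrane glycoprotein that restrains canonical signalling, was lower without overlap, with 21.6, 25.7, 20.8 and 20.6 CPM in aged tumours, against 30, 26.2, 32.3 and 32.5 CPM in young tumours (log2 fold change -0.44 ± 0.12, SE; edgeR adjusted p = 0.92). Ptk7, a pseudokinase co-receptor, had 79.2 to 167 CPM in aged tumours, against 121 to 467 CPM in young tumours (log2 fold change -0.90 ± 0.39, SE; edgeR adjusted p = 0.92), and young 43 alone reached 467 CPM; without that tumour the fold change was -0.41. The count of 4 was 7 in limma voom (11.3%, against 12.1% of all genes there), 2 without young 37 (3.12%, against 3.95%) and 1, Tpbg, without young 43 (1.56%, against 3.6%).

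The genes of Wnt secretion had log2 fold changes of -0.08 (Wls, the Wnt transporter) and 0.25 (Porcn, the acyltransferase that adds the lipid). Of 7 tested R-spondins and receptors 4 were above 0 and 3 below, with Lgr4, an R-spondin receptor, at 0.49 (edgeR adjusted p = 0.92) and the R-spondin Rspo2 at -0.43. Of 10 tested other regulators, Tpbg included, 7 were below 0, among them Igfbp4, an insulin-like growth factor binding protein that also inhibits Wnt signalling, at -0.53 (edgeR adjusted p = 0.92). The 11 genes of the destruction complex and Dishevelled had fold changes of -0.25 (Amer1) to 0.28 (Axin1, the constitutive relative of Axin2), and the 10 nuclear effectors of -0.26 (Bcl9l, a beta-catenin co-activator) to 0.33, with Tcf7l1, a mostly repressive Tcf factor, at -0.24. The polarity gene Vangl2 stood at -0.40 (edgeR adjusted p = 0.92). Of the tested genes of these lists, Tpbg and the polarity gene Daam1, given above, were those with an unadjusted p under 0.05.

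Of 13 other tested target genes of beta-catenin, 7 were above 0 and 6 below, with a median of 0.20. Sp5, a transcription factor directly induced by beta-catenin, had 0.836, 1.41, 6.26 and 0.132 CPM in aged tumours, against 0.797, 0.296, 0 and 0.028 CPM in young tumours (log2 fold change 2.88 ± 1.32, SE; edgeR adjusted p = 0.92). Without aged 50 its fold change was 1.48, and without young 36 it was 4.30. Tnfrsf19, a receptor of the tumour necrosis factor family, had 1.11, 6.07, 25.5 and 0.926 CPM in aged tumours, against 4.78, 0.998, 4.33 and 0.56 CPM in young tumours (log2 fold change 1.61 ± 1.08, SE; edgeR adjusted p = 0.92). Without aged 50 the fold change of Tnfrsf19 was -0.00. Aged 50, the tumour with the most Axin2 and Lef1, was the highest for both.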

How the data were processed

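RNA of 8 tumours, 4 per host age, was sequenced from TruSeq mRNA libraries as 50 bp paired ends, per the labels' protocols; the design text names the stranded kit. TopHat2 2.0.12, Picard 2.7.1, bcl2fastq and the build GRCm38 are named by the submitters' processing notes. Which program counted fragments, with which annotation and whether by strand, is not given in the sources used here. As the file headers show, the authors deposited a fragment count per gene, CPM (headed FPM), FPKM, which equals that CPM over the deposited transcript length in kilobases, and that length. 27 symbols turned into dates were restored by Entrez number. Every pair of libraries differed beyond sampling noise (chi-square over degrees of freedom at least 42.6), so none was a copy. Nothing says that groups shared a batch or litter.

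Counts were tested with edgeR 4.0.16 (R 4.3.3): filterByExpr (minimum count 10, minimum total 15), TMM factors, robust quasi-likelihood fit with host age as the only term, Benjamini-Hochberg adjustment over 14575 genes, threshold 0.05. The standard error is the fold change over the square root of F. log2 CPM used a prior count of 2. DESeq2 1.42.0, limma 3.58.1, other scalings and filters and each tumour left out were alternatives. The procedure was also run on simulated counts with the same dispersion for every gene, unlike these data. That run does not show how well differences are found in genes that vary as widely as these. Positions come from a RefSeq table and transcripts from GENCODE vM21, both GRCm38. Detection limits cover counting error only, while the SD and SE values also hold the variation between tumours.

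The genes and lists were chosen with earlier results of these data known. All 44 genes are named. Values in every tumour are given for the 8 tested genes of smallest p, the 3 highest ligands, receptors and antagonists, the co-receptors, targets, Notum and neighbouring pairs, and genes with over 50% of fragments in 1 tumour; of each other list the 2 genes of smallest p are named.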

Additional observations from a re-analysis of the deposited data

Results flagged for a closer look

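In each group of 4 tumours, the highest and lowest log2 CPM of every tested gene were set against the other 3, and 5 of 66 groups held a tumour far from the rest by Dixon's criterion; chance alone flags about 1 group in 20. Axin2 stood at 4.42 in aged 50, against 2.84 to 2.97 in the other aged tumours. Sfrp4 stood at 1.46 in aged 46, against 3.05 to 3.33. Wnt5b stood at -0.18 in aged 46, against 1.74 to 1.82. Fzd2 stood at 7.21 in aged 47, against 6.97 to 7. Among young tumours, Sfrp5 stood at 1.57 in young 40, against -2.12 to -1.50. Aged 46 also had the lowest sums of fibroblast markers (4871 CPM) and smooth muscle markers (117 CPM) of all tumours, and aged 50 the highest of smooth muscle markers (1631 CPM); their part in these values was not tested.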

How the results depend on the processing

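Over 17 alternatives, 608 values of 36 named genes were recomputed: 585 kept direction and side of the threshold, 2 (Wnt6 and Wnt10a in DESeq2) passed it, and 21 changed sign, over 8 genes whose fold changes were near 0 or rested on 1 tumour. The genes called numbered 51 in DESeq2 and 9 in limma voom, and the family members called 2 in DESeq2; the cause was not tested. Wnt6, Wnt10a and Fzd2 were under an unadjusted p of 0.05 in every setting. With a tumour left out, the count of such members ran from 3 to 6 (8.82% to 18.2%, against 3.59% to 7.78% of all genes). Members without overlap then ran from 3 to 5 (8.82% to 14.7%, against 5.22% to 8.83% of all genes). They were 2 on the CPM as deposited, and 2 of 33 with library size only (6.06%, against 3.46% of all genes). Other pathway genes under that p numbered 7 in limma voom (11.3%, against 12.1% of all genes). With a tumour left out those genes numbered 1 to 4 (1.56% to 6.35%, against 3.59% to 7.78% of all genes).

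Without aged 50 and young 36, Wnt9a stood at 0.06, Sfrp1 at -0.64, Wnt10b at -0.41 and Wnt2b at -0.65, and in limma voom Lrp6 at -0.02 and Wnt10b at -0.02. With a tumour left out, ranges were -0.16 to 0.20 (Wnt9a), -0.35 to 0.08 (Wnt5a), -0.54 to 1.10 (Sfrp1), -0.12 to 0.13 (Lrp5), -0.17 to 0.20 (Lrp6), -0.34 to 0.23 (Wnt10b), -0.43 to 1.70 (Wnt2b) and -0.00 to 2.09 (Tnfrsf19). The median fold change of all genes was 0.019 to 0.037 under the other scalings and 0.058 in DESeq2. Genes under 0.111 CPM are at the detection limit. No paired analysis was possible because the groups share no mouse number.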
